A study of Mus musculus with 15 samples.

Results

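Most of the 10 genes described here carry the insulin and insulin-like growth factor 1 (IGF1) signal in muscle. The rest are brakes, on the growth kinase mTOR downstream of it or, for Eif4ebp1, on the protein synthesis that mTOR drives. The 10 genes were chosen by gene symbol, with earlier results of these data known. All 10 were found among the 14272 named genes of the deposited table. They are the ligand Igf1 and its binding protein Igfbp5; the receptors Igf1r and Insr; the adapters Irs1 and Irs2; Pik3r1, a regulatory subunit of phosphoinositide 3-kinase (PI3K); and the brakes Ddit4, Sesn1 and Eif4ebp1. Their transcripts were measured by RNA sequencing in quadriceps of male DBA/2J-mdx mice, which lack dystrophin and serve as a model of Duchenne muscular dystrophy. Daily mice (5 libraries) received prednisone, a synthetic glucocorticoid, intraperitoneally at 1 mg/kg on each of 7 occasions per week. Weekly mice (5 libraries) received 1 such dose and 6 injections of the DMSO vehicle per week, and vehicle mice (5 libraries) received DMSO 7 times. All mice carried the mdx mutation, so no group had healthy muscle. The labels give their age as 6 months in one place and about 7 months in another, and are silent on the length of treatment and on whether each library is a separate animal. The p-values thus reflect the spread among these libraries alone, and that spread may be technical.

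Insulin and IGF1 bind receptor tyrosine kinases that phosphorylate the IRS adapters, which recruit PI3K and so activate the kinase AKT. AKT switches on mTOR complex 1, which drives protein synthesis, and keeps FoxO transcription factors out of the nucleus, where they would induce atrophy genes. Glucocorticoids are known to cause muscle wasting at high or prolonged exposure, and Ddit4 is a known target of their receptor.

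Levels are in CPM, read counts scaled to a fixed library total. Depth was 2780768 to 11052552 reads per library, and the member with the fewest reads, Ddit4, had 27 to 38 reads in each vehicle library. The muscle fibre markers, 10 of 10 present, summed to 44493 to 68328 CPM in daily, 56300 to 94002 in weekly and 73196 to 75332 in vehicle libraries. The vehicle libraries lay close together, with a biological coefficient of variation of 3.55%, against 9.40% in daily and 29.4% in weekly libraries. Weekly 4 and daily 3 differed from their groups. Weekly 4, which had the fewest reads, held 0.570% of its reads in the mitochondrial ribosomal RNA mt-Rnr2, where its group otherwise held 6.23% to 9.44%, and its fibroblast markers summed to 18682 CPM, where the group otherwise reached 1644 to 2498. The collagen genes Col1a1 and Col3a1 gave 7723 and 10610 CPM of that sum. Pdgfra, Dpt and Pi16, at 125, 44.2 and 43.2 CPM, were also each highest in weekly 4 among the weekly libraries. Dcn, Lum and Fap, at 96.4, 26.3 and 13.7 CPM, were each second lowest there. Daily 3 had 20.6% of its reads in Gm26924 and a TMM factor of 0.652 (TMM is a trimmed mean scaling between libraries). Results are given on the deposited scale, and on the TMM scale where that changes a call or a direction. The median log2 change of all genes on the deposited scale was 0.17 for weekly over vehicle, -0.08 for daily over vehicle and -0.24 for daily over weekly, and with TMM scaling it was 0.01, 0.00 and 0.01.

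Promoters are shown for the 3 genes with the largest changes in daily against vehicle and for Sesn1, which has the single FoxO match. Each runs from 250 bases before to 50 after the RefSeq start (GRCm38.p6), 5′ to 3′ on the strand of the gene, with motif matches in capitals.
Ddit4 (chr10:59951721-59952020, minus strand): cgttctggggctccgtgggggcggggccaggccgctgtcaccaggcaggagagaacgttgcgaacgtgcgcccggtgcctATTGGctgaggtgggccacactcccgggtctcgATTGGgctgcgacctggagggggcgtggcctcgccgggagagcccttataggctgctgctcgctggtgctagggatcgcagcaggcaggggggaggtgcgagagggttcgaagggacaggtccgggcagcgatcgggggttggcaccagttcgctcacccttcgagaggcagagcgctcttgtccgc
Igf1 (chr10:87860861-87861160, plus strand): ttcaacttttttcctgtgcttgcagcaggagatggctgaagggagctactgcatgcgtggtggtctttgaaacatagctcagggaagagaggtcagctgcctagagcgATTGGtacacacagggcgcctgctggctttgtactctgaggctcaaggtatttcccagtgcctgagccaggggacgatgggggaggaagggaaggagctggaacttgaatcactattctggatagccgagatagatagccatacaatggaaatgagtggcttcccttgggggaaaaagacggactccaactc
Irs1 (chr1:82291390-82291689, minus strand): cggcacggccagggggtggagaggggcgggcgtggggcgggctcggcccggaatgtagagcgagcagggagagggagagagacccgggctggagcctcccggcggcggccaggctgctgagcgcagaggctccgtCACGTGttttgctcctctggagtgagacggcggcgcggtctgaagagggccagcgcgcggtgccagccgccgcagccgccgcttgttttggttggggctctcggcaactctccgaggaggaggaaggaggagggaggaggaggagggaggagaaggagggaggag
Sesn1 (chr10:41810324-41810623, plus strand): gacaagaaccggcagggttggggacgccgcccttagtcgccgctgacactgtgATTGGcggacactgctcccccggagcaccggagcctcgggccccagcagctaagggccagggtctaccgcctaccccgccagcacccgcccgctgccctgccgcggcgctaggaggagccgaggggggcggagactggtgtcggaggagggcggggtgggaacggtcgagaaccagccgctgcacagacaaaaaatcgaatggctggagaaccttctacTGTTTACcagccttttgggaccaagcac
Ddit4 holds 2 CCAAT boxes, read on the opposite strand as ATTGG, at positions -170 and -137, and Igf1 holds 1 at -142. Irs1 holds the palindromic E-box CACGTG at -115. Sesn1 holds a CCAAT box at -197 and the FoxO core GTAAACA, on the opposite strand as TGTTTAC, at 23 bases past its start. RefSeq promoters of this kind matched 8 of the 10 genes, with 10 starts between them; those of Insr and Eif4ebp1 are named only. Both strands were searched, and no match overlapped another. CCAAT was found in 5 of the 8 genes and in 37.4% of all 32851 promoters, CACGTG in 2 genes and 7.15%, GTAAACA in 1 gene and 3.65%, and the TATA box core TATAAA in 1 gene (Pik3r1) and 13.6%. The glucocorticoid receptor core AGAACA, present in 19.0% of promoters, and the amino acid response core TGATGNAA, present in 3.97%, had no match in these windows. The shares are descriptions of letters in a short window, which do not bear on whether a factor binds.

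**Figure D1:**
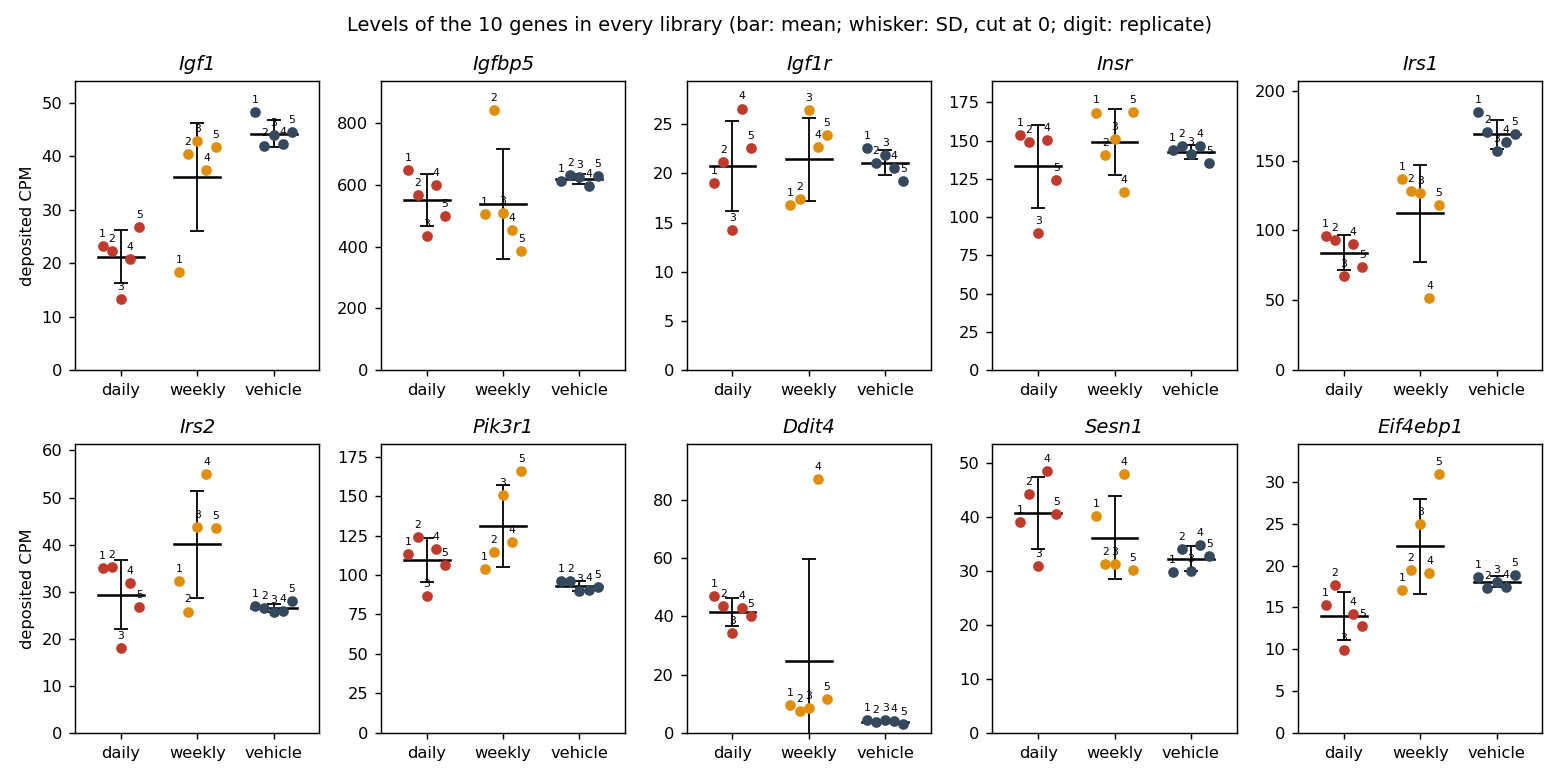
Deposited CPM (y axis, from 0) of each of the 10 genes in every library, grouped as daily, weekly and vehicle (x axis); the horizontal bar is the mean, the whisker the SD cut at 0, and the digit the replicate. The daily points of Igf1 and Irs1 lie below every vehicle point and those of Ddit4 above, and weekly 4 stands alone at 87.0 CPM in Ddit4.

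Igf1, the ligand, was lower in daily muscle than in vehicle muscle. Igf1 (chromosome 10, 87858265 to 87937042, plus strand of GRCm38, protein-coding) measured 23.3, 22.3, 13.3, 20.7 and 26.7 CPM in daily libraries 1 to 5. It measured 18.3, 40.4, 42.8, 37.4 and 41.7 CPM with weekly dosing and 48.3, 42.0, 44.1, 42.3 and 44.5 CPM in vehicle libraries 1 to 5. Every daily library lay below every vehicle library, and weekly 1 lay with the daily libraries. Weekly 3 lay within the vehicle range, and weekly 2, 4 and 5 lay below it, though nearer to vehicle than weekly 1. Daily libraries averaged 21.3 ± 4.96 CPM, weekly 36.1 ± 10.2 and vehicle 44.2 ± 2.53 (SD, n = 5 each). Relative to vehicle, Igf1 fell by 1.07 on the log2 scale in daily libraries (SE 0.20, limma adjusted p = 0.00289). In bulk muscle, fewer cells that make a transcript and less transcript per cell cannot be told apart. Relative to weekly libraries it fell by 0.72 (SE 0.20, limma adjusted p = 0.0323), a call that ended with TMM scaling (-0.46, adjusted p = 0.114) and without daily 3, daily 4, weekly 2, weekly 3 or weekly 5 (highest adjusted p = 0.0962). The change in weekly against vehicle was -0.35 (SE 0.20, limma adjusted p = 0.298). It was -0.12 without weekly 1 and -0.53 with TMM scaling, where it passed the test (adjusted p = 0.0453). On the TMM scale every weekly library (18.3 to 38.5 CPM) lay below every vehicle library (43.1 to 48.9 CPM). The 10 markers of macrophages, a cell type that also makes Igf1, summed to 187 CPM in weekly 1, where Igf1 was 18.3 CPM. They summed to 1711 CPM in weekly 4, where Igf1 was 37.4 CPM, and to 408 to 474 CPM in weekly 2, 3 and 5. The sums were 263 to 538 CPM in daily and 432 to 471 CPM in vehicle libraries. The part of the macrophage markers in the Igf1 values was not tested. Of 10 adipocyte markers, limma called 4 lower in daily against vehicle (median change of the 10 -1.20), and 7 had every daily library below every vehicle library. Adipoq, for one, averaged 12.3 CPM in daily and 29.9 CPM in vehicle libraries. Their sum, 471 to 901 CPM in daily and 814 to 867 CPM in vehicle libraries, overlapped between these groups. Its largest term was Plin4, at 468 CPM in daily and 338 CPM in vehicle libraries (0.44, adjusted p = 0.249; 0.0241 with TMM scaling). The part of the adipocyte markers in the daily values of Igf1, and of Irs1 below, was not tested. An antisense gene, Igf1os, overlaps Igf1. Genes on the opposite strand also overlap Insr, Irs1 (the protein-coding Gm9747) and Irs2, and genes on the same strand overlap Pik3r1 and Sesn1. The sources used here do not say whether the counting used the strand.

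Igfbp5, which binds IGFs outside the cell, had the highest mean level per kilobase of exon of the 10 genes in all 3 groups (chromosome 1, 72857932 to 72874884, minus strand). It measured 434 to 649 CPM in daily, 384 to 842 in weekly and 595 to 633 in vehicle libraries. The weekly range was set by weekly 2 at 842 CPM, since the other 4 reached at most 508. Its change was -0.18 in daily against vehicle (SE 0.17, limma adjusted p = 0.638) and -0.25 in weekly against vehicle (SE 0.17, adjusted p = 0.369). Neither passed the test on the deposited scale. The weekly change passed with quantile normalization (-0.48, limma adjusted p = 0.0399). Leaving out 1 library at a time gave it -0.43 to -0.15, and no such fit passed (lowest limma adjusted p = 0.0580).

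Neither receptor passed the test in any of the 3 comparisons. Igf1r, the IGF1 receptor (chromosome 7, 67952827 to 68233668, plus strand), measured 14.3 to 26.6 CPM in daily, 16.8 to 26.5 in weekly and 19.2 to 22.5 in vehicle libraries. The daily range thus enclosed the vehicle range. Its log2 change was -0.05 in daily against vehicle (SE 0.17) and 0.01 in weekly against vehicle (SE 0.17). Insr, the insulin receptor (chromosome 8, 3122061 to 3279617, minus strand), measured 89.7 to 154 CPM in daily, 117 to 169 in weekly and 135 to 146 in vehicle libraries. Its log2 change was -0.12 in daily against vehicle (SE 0.15) and 0.05 in weekly against vehicle (SE 0.15). The limma adjusted p of the receptors ran from 0.452 to 0.987, and the sign of their small changes turned with the scaling. The lowest daily value of both genes was in daily 3.

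Irs1, the main IRS adapter of muscle, was lower in both prednisone groups than in vehicle. Irs1 (chromosome 1, 82233101 to 82291416, minus strand) measured 96.0, 93.2, 67.7, 90.0 and 73.7 CPM in daily libraries 1 to 5. It measured 137, 128, 127, 51.4 and 118 CPM with weekly dosing and 185, 171, 157, 163 and 169 CPM in vehicle libraries 1 to 5. Each of the 10 prednisone libraries lay below each vehicle library, and weekly 4 lay below the daily libraries too. Daily libraries averaged 84.1 ± 12.6 CPM, weekly 112 ± 34.6 and vehicle 169 ± 10.5 (SD, n = 5 each). Relative to vehicle, Irs1 fell by 1.01 in daily libraries (SE 0.20, limma adjusted p = 0.00387). In weekly libraries it fell by 0.66 relative to vehicle (SE 0.20, limma adjusted p = 0.0432), and by 0.40 without weekly 4 (adjusted p = 0.0381). That call ended when any of daily 1, 2, 4 or 5, weekly 3 or 5, or any vehicle library was left out (highest adjusted p = 0.0995). The change in daily against weekly was -0.35 (SE 0.20, limma adjusted p = 0.252), and -0.61 without weekly 4, where it passed the test (adjusted p = 0.00103). On the deposited scale, the weekly libraries other than weekly 4 spanned 118 to 137 CPM. They lay between the daily libraries (67.7 to 96.0) and the vehicle libraries (157 to 185). With TMM scaling the daily libraries (77.4 to 104) and these weekly libraries overlapped, with weekly 5 at 101 CPM. Both still lay below the vehicle libraries (161 to 187).

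Irs2, the other IRS adapter, and Pik3r1 were higher in most weekly libraries than in vehicle. Irs2 (chromosome 8, 10984681 to 11008458, minus strand) measured 35.0, 35.3, 18.0, 31.8 and 26.7 CPM in daily, 32.3, 25.8, 43.7, 55.0 and 43.6 CPM in weekly, and 26.9, 26.6, 25.8, 26.0 and 27.9 CPM in vehicle libraries 1 to 5. In 4 of 5 weekly libraries it exceeded every vehicle library, and weekly 2 did not. Its change in weekly against vehicle was 0.53 (SE 0.19, limma adjusted p = 0.0877), which missed the threshold; without weekly 2 it was 0.68 (adjusted p = 0.0215). Daily against vehicle gave 0.10 (SE 0.19, limma adjusted p = 0.845).

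Pik3r1 (chromosome 13, 101680563 to 101768217, minus strand) encodes a subunit that holds the catalytic subunit of PI3K to the IRS proteins. It measured 114, 124, 86.9, 116 and 106 CPM in daily, 104, 114, 151, 121 and 166 CPM in weekly, and 96.4, 96.0, 90.0, 90.6 and 92.1 CPM in vehicle libraries 1 to 5. Every weekly library lay above every vehicle library, as did every daily library except daily 3. Relative to vehicle, Pik3r1 rose by 0.47 in weekly libraries (SE 0.14, limma adjusted p = 0.0381). The call ended with TMM scaling (0.29, adjusted p = 0.0647), and without daily 5, weekly 3, weekly 5 or any vehicle library (highest adjusted p = 0.116). The daily change against vehicle was 0.22 (SE 0.14, limma adjusted p = 0.438). With TMM scaling it was 0.31 (limma adjusted p = 0.0518), and every daily library then lay above every vehicle library. The daily change passed with quantile normalization (0.36, limma adjusted p = 0.0323) and with DESeq2 on reads (0.31, adjusted p = 0.0253). The highest Pik3r1 libraries, weekly 3 and 5, also had the highest summed level of the 10 adipocyte markers, 1900 and 3235 CPM, where weekly 1, 2 and 4 had 1053 to 1173 CPM, the daily libraries 471 to 901 CPM and the vehicle libraries 814 to 867 CPM. In weekly 4, Plin4 gave 607 CPM of the sum and lay above every vehicle library, as did Adipoq, Lep and Cfd. Cidec and Lipe in weekly 4 lay below every vehicle library, and Plin1, Fabp4, Retn and Adrb3 lay within the vehicle range. Limma called 5 of the 10 markers higher in weekly against vehicle (2 with TMM scaling). The endothelial markers also summed highest in weekly 3 and 5, at 286 and 323 CPM, against 205 to 237 CPM in weekly 1, 2 and 4. The part of either set of markers in the Pik3r1 values was not tested.

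Ddit4 showed the largest change of the 10 genes in all 3 comparisons. The Ddit4 protein acts through the TSC complex to inhibit mTOR complex 1, and its gene is short (chromosome 10, 59949669 to 59951834, minus strand). It measured 46.9, 43.5, 34.2, 42.9 and 40.2 CPM in daily, 9.61, 7.42, 8.66, 87.0 and 11.5 CPM in weekly, and 4.26, 3.86, 4.35, 3.98 and 3.05 CPM in vehicle libraries 1 to 5. All prednisone libraries lay above all vehicle libraries. The 4 weekly libraries other than weekly 4 lay between the vehicle and the daily libraries, and weekly 4 lay above every daily library. Daily libraries averaged 41.5 ± 4.75 CPM and vehicle libraries 3.90 ± 0.515 CPM (SD, n = 5 each), a fitted fold of 9.56. Relative to vehicle, Ddit4 rose by 3.26 in daily libraries (SE 0.41, limma adjusted p = 5.06e-05). In weekly libraries it rose by 1.78 relative to vehicle (SE 0.41, limma adjusted p = 0.00994), and by 1.15 without weekly 4 (adjusted p = 2.10e-06), where the other 4 weekly libraries averaged 9.29 ± 1.71 CPM. In daily against weekly it rose by 1.48 (SE 0.41, limma adjusted p = 0.0317), and by 2.11 without weekly 4 (adjusted p = 2.18e-13). With all libraries that last call ended when any daily library or weekly 2, 3 or 5 was left out (highest adjusted p = 0.0815). Fkbp5, a glucocorticoid receptor target, was read here as a check of exposure. It measured 75.6 to 109 CPM in daily, 37.4 to 191 CPM in weekly libraries and 27.4 to 36.5 CPM under vehicle. Its highest value was also in weekly 4. Tsc22d3, read for the same purpose, gave a less clear separation. Vehicle libraries held 156 to 175 CPM of it, and daily libraries 195 to 311 CPM. Weekly 1, at 153 CPM, lay below every vehicle library. The remaining weekly libraries lay above them, at 196 to 425 CPM, with weekly 4 again highest.

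Sesn1, a stress-induced sestrin that restrains mTOR complex 1, did not pass the test on the deposited scale, and passed it with TMM scaling in both daily comparisons. Sesn1 (chromosome 10, 41809935 to 41908424, plus strand) measured 39.1, 44.3, 30.8, 48.6 and 40.6 CPM in daily, 40.2, 31.3, 31.2, 47.8 and 30.2 CPM in weekly, and 29.8, 33.9, 30.0, 34.8 and 32.8 CPM in vehicle libraries 1 to 5. Of the daily libraries, 4 exceeded every vehicle library and daily 3 did not. Its change in daily against vehicle was 0.32 on the deposited scale (SE 0.15, limma adjusted p = 0.299). With TMM scaling it rose by 0.40 in daily against vehicle and by 0.44 in daily against weekly (SE 0.12, limma adjusted p = 0.0437 in both). Its weekly change against vehicle was 0.14 on the deposited scale (SE 0.15, limma adjusted p = 0.597) and -0.04 with TMM scaling.

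Eif4ebp1 encodes a repressor that binds the cap-binding factor eIF4E until mTOR complex 1 phosphorylates it (chromosome 8, 27260329 to 27276674, plus strand). It measured 15.2, 17.7, 9.91, 14.2 and 12.7 CPM in daily, 17.1, 19.5, 25.0, 19.1 and 31.0 CPM in weekly, and 18.6, 17.3, 18.1, 17.5 and 18.9 CPM in vehicle libraries 1 to 5. In 4 of 5 daily libraries it lay below every weekly and every vehicle library, the exception being daily 2. Relative to weekly, Eif4ebp1 fell by 0.65 in daily libraries (SE 0.17, limma adjusted p = 0.0250). This call ended with TMM scaling (-0.39, adjusted p = 0.0838) and without daily 3, daily 5, weekly 3 or weekly 5 (highest adjusted p = 0.0783). The daily change against vehicle was -0.39 (SE 0.17, limma adjusted p = 0.260). Weekly 3 and 5, the highest weekly libraries, again had the highest adipocyte and endothelial marker sums, whose part was not tested.

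**Figure D2:**
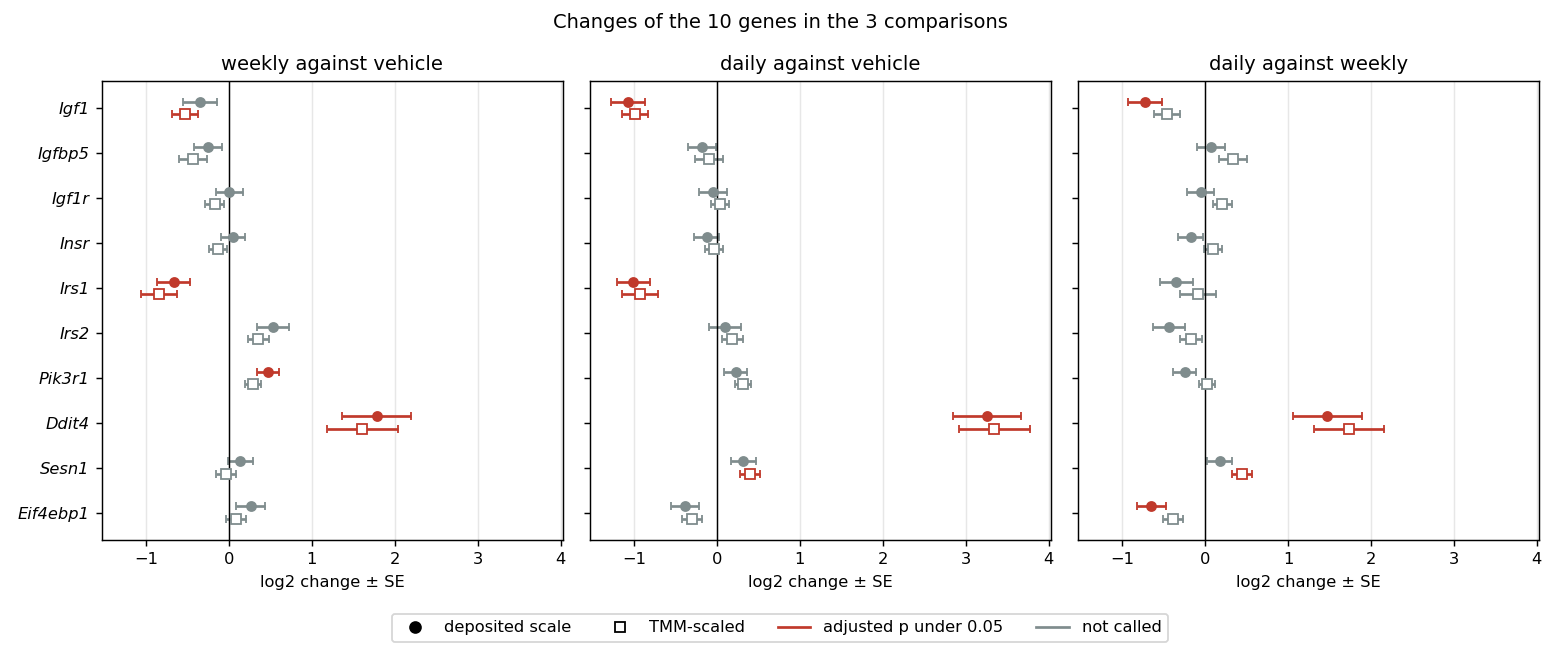
Log2 change with its SE (x axis, the same in all panels) of each of the 10 genes (y axis) in each of the 3 comparisons, 1 per panel; filled circles are on the deposited scale, open squares are TMM-scaled, and red marks a limma adjusted p under 0.05. Ddit4 lies to the right in all panels, Irs1 to the left of 0 in both comparisons with vehicle, and Igf1 at -1.07 in daily against vehicle.

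The 10 genes were chosen with earlier results of these data known, so the counts below are not a test of the set. Of the 10 genes, 2 rose (Pik3r1 and Ddit4) and 1 fell (Irs1) in weekly against vehicle, against 8.06% of all 14059 genes tested with limma, of which 6.99% rose and 1.07% fell. Against vehicle, daily libraries had 1 rise (Ddit4) and 2 falls (Igf1 and Irs1), against 3.89% of all genes, of which 1.76% rose and 2.13% fell. Against weekly libraries they had 1 rise (Ddit4) and 2 falls (Igf1 and Eif4ebp1), against 8.73% of all genes, of which 0.484% rose and 8.24% fell. With TMM scaling the weekly comparison with vehicle had 1 rise (Ddit4) and 2 falls (Igf1 and Irs1), against 9.94% of all genes, of which 5.72% rose and 4.22% fell. The daily comparison with vehicle then had 2 rises (Ddit4 and Sesn1) and 2 falls (Igf1 and Irs1), against 9.06% (5.58% and 3.49%), and daily against weekly had 2 rises (Ddit4 and Sesn1), against 4.72% (2.08% and 2.64%). Groups did not overlap on the deposited scale for 3 of the 10 genes in weekly against vehicle, where 13.4% of all genes did not, for 3 in daily against vehicle (11.3%), and for 0 in daily against weekly (7.21%). With TMM scaling 2 lay above and 2 below without overlap in weekly against vehicle (9.79% of all genes did not overlap), and 3 above and 3 below in daily against vehicle (19.7%). All 10 overlapped between daily and weekly libraries (5.04% of all genes did not). The median change of the 10 genes, 0.10 in weekly against vehicle and -0.09 in daily against vehicle, lay near that of all genes, 0.17 and -0.08. Both comparisons with vehicle use the same 5 vehicle libraries. Pairs of them differed by a chi-square of at most 2.01 per degree of freedom, where counting noise alone gives 1. With only the groups compared in the fit, Irs1 and Ddit4 no longer passed in weekly against vehicle (limma adjusted p = 0.0807 and 0.0548), and 0 of the 10 passed in daily against weekly. With edgeR's quasi-likelihood test on reads, Igf1, Ddit4 and Eif4ebp1 no longer passed in daily against weekly (adjusted p = 0.0698, 0.136 and 0.0547). When the 5 vehicle libraries were replaced by their average, limma called 7 genes in weekly and 3 in daily against vehicle, 0 of the 10 among them.

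**Figure D3:**
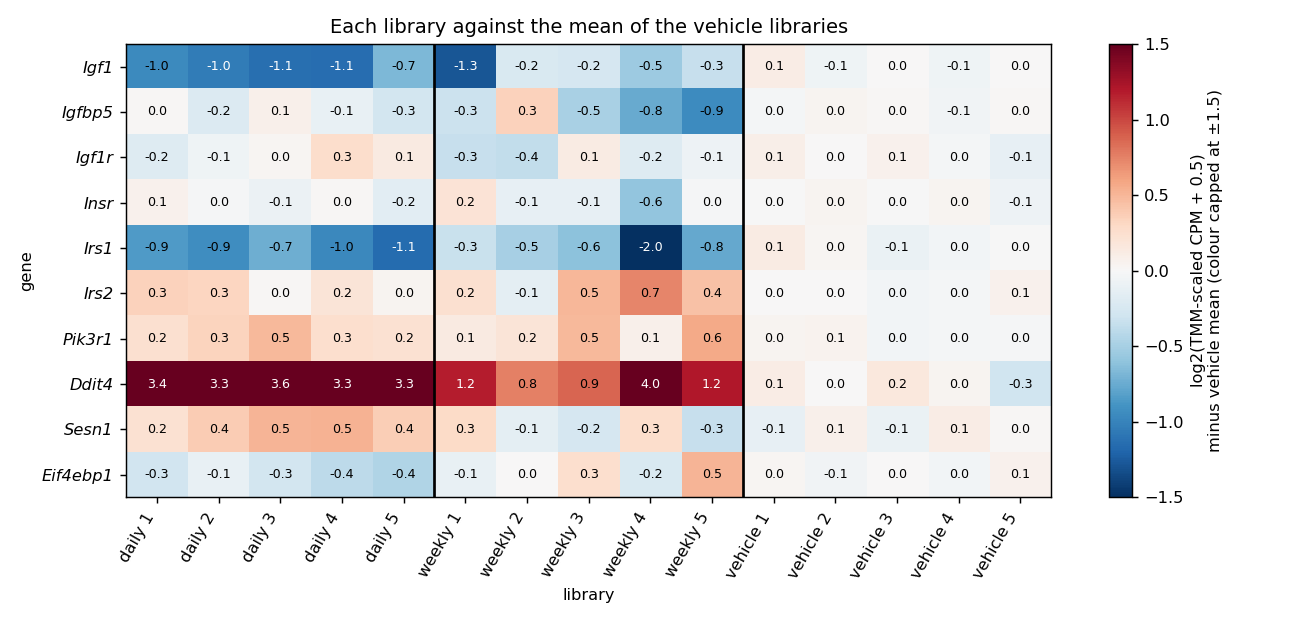
Log2(TMM-scaled CPM + 0.5) minus the vehicle mean (colour and printed value, colour capped at 1.5 either way) for each of the 10 genes (rows) in each library (columns: daily, weekly, vehicle). The Irs1 row is blue in all daily and weekly libraries and deepest in weekly 4, the Igf1 row is deep blue in the daily libraries and weekly 1, and the Ddit4 row is red in every prednisone library.

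Per kilobase of exon, the order of levels differed between groups. In daily libraries Igfbp5 was first (91.5 CPM per kb), then Ddit4 (23.7 ± 2.70), Pik3r1 (10.9), Sesn1 (10.2), Insr (9.70), Irs1 (9.20), Eif4ebp1 (6.36), Irs2 (4.65), Igf1 (2.15) and Igf1r (1.23). In weekly libraries Igfbp5 (89.6) was again first, and the mean of Ddit4 (14.2 ± 19.8) rested on weekly 4. In vehicle libraries Igfbp5 was first (103), then Irs1 (18.5 ± 1.15), Insr (10.4), Pik3r1 (9.23), Eif4ebp1 (8.23), Sesn1 (8.11), Igf1 (4.47), Irs2 (4.21), Ddit4 (2.22 ± 0.293) and Igf1r (1.25). Ddit4 thus took the second place in daily and the second to last in vehicle muscle. Neighbours whose ranges overlapped were Eif4ebp1 and Sesn1, and Igf1 and Irs2, in vehicle libraries, each adjacent pair from Pik3r1 down to Irs2, and Igf1 and Igf1r, in daily libraries, and each adjacent pair from Ddit4 down to Igf1 in weekly libraries.

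The genes whose profiles over the 15 libraries lay closest to each member, by root mean square difference of centred log2 values, were listed for the 5 members called on the deposited scale with all libraries. Closest to Ddit4 were Arrdc2 (0.62), F7 (0.64) and Map3k6 (0.65), where the spread of Ddit4 itself was 1.53. Arrdc2, an arrestin-domain gene, averaged 20.6 CPM in daily, 9.34 CPM in weekly libraries and 4.05 CPM under vehicle. Closest to Igf1 (spread 0.55) were Rpl26 (0.23), Lrrn4cl (0.24) and Rplp0 (0.25), and closest to Irs1 (0.53) were Cpeb4 (0.17), Rps25 (0.20) and Rps27 (0.20). Of these, Rpl26, Rplp0, Rps25 and Rps27 encode ribosomal proteins, and Cpeb4 a regulator of mRNA translation. Closest to Pik3r1 (0.26) were Slc20a1, Heg1 and Camsap2 (0.11 each), and closest to Eif4ebp1 (0.36) were Ywhab (0.12), Dolk (0.12) and Rab5c (0.13). All genes were read in the same 15 libraries, with the same groups and depths, so likeness is a description.

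Among 109 tested of 112 other listed pathway genes, limma called 4 that rose and 2 that fell in weekly against vehicle (5.50%), with a median change of 0.14. The daily comparison with vehicle had 3 rises and 3 falls, with a median of -0.14, and in daily against weekly 1 rose and 10 fell (10.1%), with a median of -0.26. The medians of all genes were 0.17, -0.08 and -0.24, and limma called 8.06%, 3.89% and 8.73% of them. With TMM scaling the pathway genes had 5 rises and 9 falls in weekly against vehicle, 7 rises and 7 falls in daily against vehicle, and 3 rises and 2 falls in daily against weekly, against 9.94%, 9.06% and 4.72% of all genes called. Of the 3 tribbles pseudokinase genes, Trib1 rose in both prednisone groups, Trib2 fell in daily muscle, and Trib3, which inhibits AKT, was called in none of the comparisons. Trib1 averaged 40.4 ± 10.8 CPM in daily, 38.4 ± 9.25 in weekly and 19.2 ± 2.36 in vehicle libraries, and rose by 1.01 (SE 0.20, limma adjusted p = 0.00439) in daily and by 0.95 (SE 0.20, adjusted p = 0.00512) in weekly against vehicle. Trib2 averaged 15.2 ± 3.51 CPM in daily, 26.5 ± 3.17 in weekly and 26.0 ± 2.29 in vehicle libraries, and fell by 0.79 in daily against vehicle (SE 0.16, adjusted p = 0.00414) and by 0.81 in daily against weekly (SE 0.16, adjusted p = 0.00326). The weekly change of Trib2 against vehicle was 0.02 (adjusted p = 0.949). Trib3 changed by 0.16 in daily (adjusted p = 0.813) and by 0.53 in weekly against vehicle (adjusted p = 0.223).

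Pik3ip1, a membrane protein that inhibits PI3K, averaged 20.3 ± 2.42 CPM in daily, 18.4 ± 4.21 in weekly and 30.1 ± 0.870 in vehicle libraries. It fell by 0.57 in daily (limma adjusted p = 0.0370, and 0.0711 with TMM scaling) and by 0.73 in weekly against vehicle (adjusted p = 0.00500). Ptpn1, a phosphatase that switches off the insulin receptor, averaged 39.3 ± 7.76 CPM in daily, 54.1 ± 27.7 in weekly and 23.9 ± 0.890 in vehicle libraries, and all daily and weekly libraries lay above the vehicle libraries. It rose by 1.04 in weekly against vehicle (SE 0.22, adjusted p = 0.00512), with weekly 4 highest at 101 CPM. Its change in daily against vehicle was 0.68 on the deposited scale (SE 0.22, adjusted p = 0.0938) and 0.77 with TMM scaling, where it passed (adjusted p = 0.0118). Sh2b2, an adapter of the insulin receptor, and Eif4a1, a translation initiation helicase, also rose in weekly against vehicle, by 0.88 and 0.70, and fell in daily against weekly, by 0.89 and 0.71. With TMM scaling the second fall passed for Eif4a1 (-0.45, adjusted p = 0.0351) and not for Sh2b2 (-0.63, adjusted p = 0.103). Slc38a9, a lysosomal arginine sensor, fell by 0.61 in weekly against vehicle.

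Foxo1, which encodes a FoxO factor that AKT inhibits, averaged 41.2 ± 7.80 CPM in daily and 23.4 ± 1.64 CPM in vehicle libraries, a rise of 0.78 (SE 0.16, limma adjusted p = 0.00414). Stc2, which inhibits the protease that frees IGFs from a binding protein, averaged 6.84 ± 1.46 CPM in daily and 3.86 ± 0.638 CPM in vehicle libraries, a rise of 0.74 (SE 0.19, adjusted p = 0.0289). Gatsl2 (also called Castor2) fell by 0.53 in daily against vehicle. Igfbp7, Rps6 and Mtor fell in daily against weekly, by 0.84, 0.62 and 0.53, and these 3 did not pass with TMM scaling (adjusted p = 0.0831, 0.0551 and 0.112). With TMM scaling Foxo1 also rose in daily against weekly (0.62, adjusted p = 0.000681), Rps6 fell by 0.40 in daily against vehicle (adjusted p = 0.0212) and Gatsl2 fell by 0.58 in weekly against vehicle (adjusted p = 0.00045). Stc2 was higher in daily than in weekly libraries on both scales (0.66 as deposited, adjusted p = 0.0353).

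The 14 genes of the TSC and mTOR complexes changed by -0.41 to 0.12 in daily against vehicle and by -0.12 to 0.36 in weekly against vehicle. Limma called 0 of 14 in each of these comparisons with vehicle, as did edgeR and DESeq2, and 1 of 14 in each reached an unadjusted p below 0.05. Of all 14059 genes, limma called 3.89% in daily and 8.06% in weekly against vehicle, and 2335 and 3451 genes reached that unadjusted p. In daily against weekly, 7 of the 14 and 4006 of all 14059 genes reached an unadjusted limma p below 0.05. The median change of the 14 was -0.36 in that comparison, where that of all genes was -0.24. Limma then called 1 lower (Mtor), DESeq2 called 1, and limma with TMM scaling and edgeR called 0. Among them, Mtor, Rptor, Deptor (an mTOR inhibitor) and Akt1s1 (an mTOR complex 1 inhibitor) had changes of -0.17, 0.00, -0.25 and -0.01 in daily against vehicle. The paralogs of the 3 brakes did not pass the test in either prednisone group against vehicle. Ddit4l, the paralog of Ddit4, changed by -0.43 in daily (limma adjusted p = 0.268) and by -0.09 in weekly against vehicle. Sesn2 and Sesn3 changed by -0.18 and 0.14 in daily, and by 0.14 and 0.11 in weekly against vehicle, and Eif4ebp2 by -0.14 and -0.10. Among the other binding proteins and adapters, Igfbp3, Igfbp4 and Grb10 changed by -0.48, -0.71 and 0.23 in daily against vehicle and did not pass (adjusted p = 0.209, 0.162 and 0.501); Grb10 passed with TMM scaling (adjusted p = 0.0381).

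**Figure D4:**
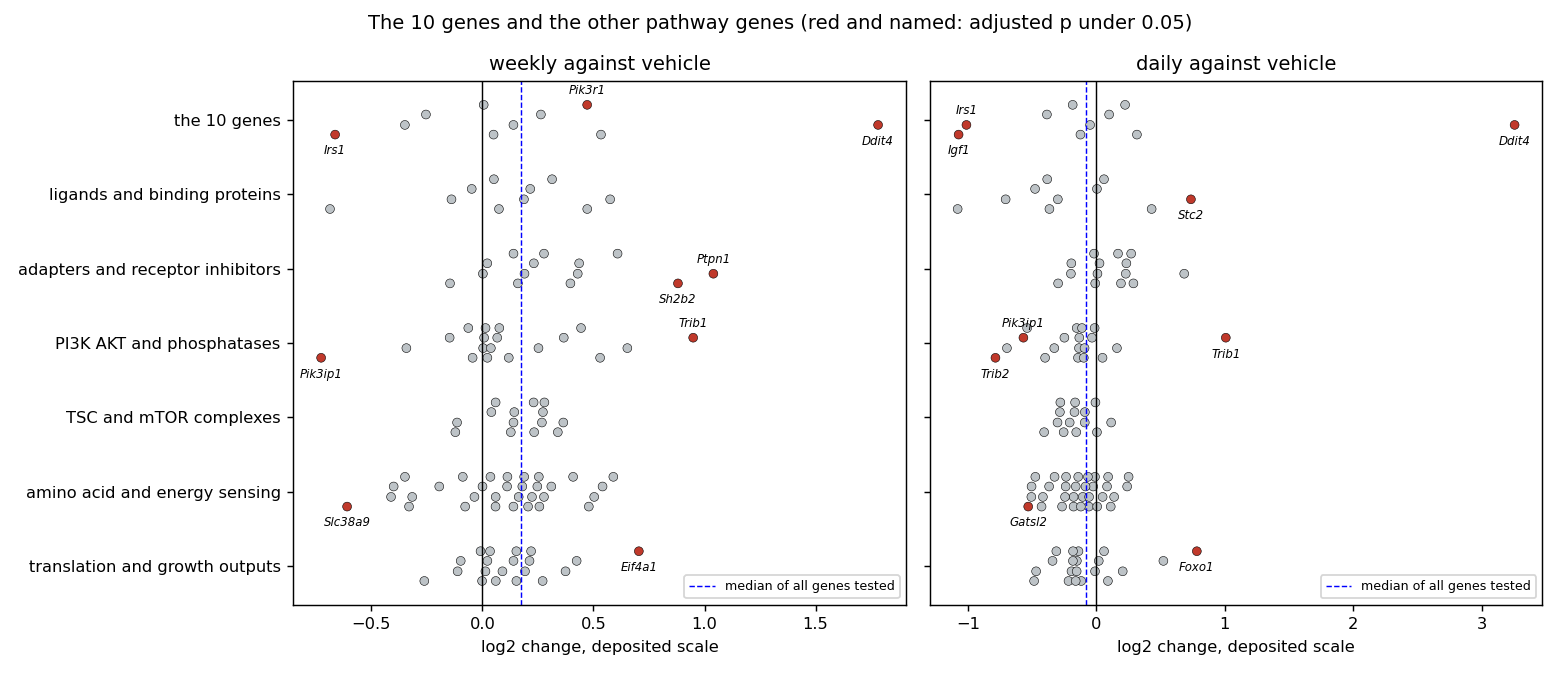
Log2 change on the deposited scale (x axis, which differs between panels) of the 10 genes and of the other tested pathway genes by list (y axis, spread only for visibility), in weekly against vehicle and daily against vehicle; red named points have a limma adjusted p under 0.05, and the dashed line is the median of all genes. Ddit4 lies farthest from 0 in both panels, and the TSC and mTOR list holds no red point.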

How the data were processed

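RNA came from quadriceps muscle and entered a stranded total RNA kit with paired-end sequencing, per the labels' protocols. The submitters' processing notes name TopHat2 2.1.0 for alignment, mm10 (GRCm38) as the build, HTSeq for counting and edgeR for conversion; they do not give the strand setting of the counting. The authors deposited 1 table for all libraries. The labels name RPKM, but the deposited values are CPM: all 222090 of 222090 were whole multiples of 1 read within 0.01 reads, at the same step for every gene. It held 9 empty columns, and 534 features without a gene name (0.276% to 0.447% of a library), which were left out.

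The test was limma 3.58.1 (R 4.3.3) on log2(CPM + 0.5) with an empirical Bayes trend, all 15 libraries in 1 fit with group as the only term. Fold changes on this scale understate those of low genes. Genes needed 1 CPM in 5 libraries, which kept 14059 of 14272, all 10 members among them. P-values were adjusted by Benjamini-Hochberg over all genes tested and called under 0.05. TMM factors and the quasi-likelihood test on recovered reads came from edgeR 4.0.16, and DESeq2 1.42.0 was a further alternative. At 3 reads a gene would have 0.271 CPM at the highest depth and 1.08 CPM at the lowest, a floor for counting error only. Code was tested on simulated data.

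Positions and exon lengths are from GENCODE M21 (GRCm38), promoters from RefSeq (GRCm38.p6). The members and lists were chosen with earlier results of these data known. Besides the members, the rule named up to 6 called pathway genes with the smallest p per comparison, 12 fixed pathway genes, and the 3 genes most like each called member. Castor1, Castor2 and Adgre1 were matched through the older symbols Gatsl3, Gatsl2 and Emr1. Alternatives covered scaling, pseudocount, filter, test, weights, averaged vehicle libraries, a replicate block and left-out libraries.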

Additional observations from a re-analysis of the deposited data

Results flagged for a closer look

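In 4 of 30 groups of 5 libraries (10 genes in 3 groups), 1 library lay far from the other 4, with a gap above Dixon's critical value of 0.71 of the group's range; chance gives about 1 in 20. All 4 were weekly libraries. Igf1 was at 18.3 CPM in weekly 1, where its group otherwise spanned 37.4 to 42.8 CPM. Irs1 was at 51.4 CPM in weekly 4, against 118 to 137 CPM. Ddit4 was at 87.0 CPM in weekly 4, against 7.42 to 11.5 CPM. Igfbp5 was at 842 CPM in weekly 2, against 384 to 508 CPM.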

How the results depend on the processing

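Of 927 values of the 10 genes recomputed under 31 alternatives (29 planned, and 2 chosen after seeing the data: TMM scaling with weekly 4 and daily 3 left out, and TMM scaling with vehicle averaged), 761 kept their direction and side of the threshold, 71 lost a call, 36 gained one and 59 changed sign. The replicate numbers did not pair the samples, since 1 of 15 same-number correlations was over 0.1 (0.146). With replicate number as a block, limma called 1096, 494 and 985 genes in weekly against vehicle, daily against vehicle and daily against weekly, and 2, 3 and 3 of the 10; Pik3r1 in weekly against vehicle was lost (adjusted p = 0.0659). Other counts are given in the same order of comparisons. Genes called moved to 1274 and 663 (daily comparisons) with TMM scaling, 1290 and 702 with quantile normalization, 1332 and 746 with edgeR, 1904 and 1596 (both against vehicle) with DESeq2, 1685 and 232 (daily comparisons) with 2 groups in the fit, and 1811, 1195 and 560 with group weights. They moved to 7, 3 and 232 with vehicle averaged to 1 sample, 3329, 2424 and 2039 without weekly 4 and daily 3, 2390, 2992 and 1877 with TMM scaling without weekly 4, 2403 and 2845 (against vehicle) with TMM scaling without weekly 4 and daily 3, and 10, 19 and 196 with TMM scaling and vehicle averaged. Members called moved to 1 (daily against weekly) with edgeR, to 1 and 0 (weekly against vehicle, daily against weekly) with 2 groups in the fit, to 0 in all 3 with vehicle averaged under either scaling, to 5 in both daily comparisons without weekly 4 and daily 3, to 6 and 5 (daily comparisons) with TMM scaling without weekly 4, and to 6 (daily against vehicle) when daily 3 was left out as well. Leaving out 1 library at a time gave 644 to 2253, 348 to 1475 and 520 to 1882 genes, and 1 to 4, 3 to 3 and 0 to 4 of the 10; in daily against vehicle the calls of Ddit4, Igf1 and Irs1 held in every such fit. DESeq2 gave no adjusted p for Ddit4 in any comparison. All 59 sign changes were between values that did not pass the test in either fit. In weekly against vehicle, with TMM scaling, quantile normalization, edgeR and DESeq2 in this order, Igf1r was -0.17, -0.23, -0.16 and -0.16, Insr -0.13, -0.14, -0.10 and -0.11 and Sesn1 -0.039, -0.087, -0.033 and -0.043. With TMM scaling without weekly 4, the same without daily 3 too, and TMM scaling with vehicle averaged, Igf1r was -0.17, -0.18 and -0.17, Insr -0.014, -0.026 and -0.13 and Sesn1 -0.11, -0.12 and -0.042; without weekly 4 and daily 3 on the deposited scale Igf1r was -0.019. For daily against vehicle the first 4 settings gave Igf1r 0.036, 0.019, 0.040 and 0.029, and the 3 with TMM scaling and left-out or averaged libraries 0.036, 0.026 and 0.034; without weekly 4 and daily 3 Igf1r was 0.075 and Insr 0.011, and with quantile normalization Insr was 0.016. For daily against weekly the first 4 gave Igf1r 0.21, 0.25, 0.20 and 0.19 and Insr 0.093, 0.16, 0.069 and 0.064, and the first 3 gave Pik3r1 0.020, 0.080 and 0.0047; the 3 later settings gave Igf1r 0.20, 0.20 and 0.21, TMM scaling with vehicle averaged gave Insr 0.093 and Pik3r1 0.020, and Igf1r was 0.094 without weekly 4 and daily 3. Leaving out 1 library gave Igf1r -0.074 to 0.086, -0.14 to 0.075 and -0.15 to 0.069 in the 3 comparisons, Insr -0.18 to 0.011 in daily against vehicle, and Igfbp5 -0.038 to 0.24 in daily against weekly. The cause of these moves was not tested. Depth limits the low genes most: Ddit4 in vehicle libraries rests on 27 to 38 reads each.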

Other observations

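The blood markers, 3 of 5 listed being in the table, summed to 23.4 to 45.1 CPM in daily, 43.5 to 78.3 CPM with weekly dosing and 79.1 to 84.8 CPM in vehicle libraries. This sum was thus lower in every prednisone library than in every vehicle library. The same held for each of the globin genes Hba-a1 and Hbb-bs. It did not hold for Alas2, the remaining marker, whose ranges overlapped between groups. Alas2 averaged 10.1 CPM in daily muscle, 9.33 CPM with weekly dosing and 8.85 CPM under vehicle. The endothelial markers summed to 114 to 185 CPM in daily, 205 to 323 CPM with weekly dosing and 185 to 205 CPM in vehicle libraries. The satellite cell and regenerating fibre markers summed to 795 CPM in weekly 4 and 184 to 230 CPM elsewhere in its group, and to 126 to 294 CPM in daily and 154 to 171 CPM in vehicle libraries.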
